A study of Mus musculus with 6 samples.

Results

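The signals of 10 genes of bone morphogenetic protein (BMP) signalling were compared in cultured mouse tumour cells of the ovarian surface epithelium, the cell layer over the ovary. They comprise the ligands Bmp2, Bmp4 and Bmp7, the secreted antagonist Grem1, the inhibitory SMAD genes Smad6 and Smad7, and the target genes Id1, Id2, Id3 and Id4. A gene entered through probe sets whose platform annotation gives its symbol alone, which found all 10 genes among 18194 and 17 of 45101 probe sets, and the probe set with the highest mean log2 signal stood for the gene. The 6 single-colour Affymetrix arrays fall into 3 groups of 2. Wild-type cells express wild-type p53 and came from animals of 9 weeks. Heterozygous cells express wild-type p53 and the p53 R172H mutant and came from animals of 9 weeks (array 1) and 12 weeks (array 2). Homozygous cells have R172H on both alleles and came from animals of 4 weeks, so age and homozygosity cannot be told apart. All 6 titles carry the prefix P/K, which the labels do not spell out, the strain background was mixed, and cells were trypsin-digested, plated and collected unpassaged. The source names of the homozygous samples give another p53 family member, and the titles were followed. The ages set the heterozygous arrays apart as separate animals, but nothing in the labels does so within the other groups. The spread between arrays there may be technical. All p-values rest on a spread pooled over the 3 groups, the homozygous pair included.

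BMPs are secreted proteins of the TGF-beta superfamily that bind pairs of receptor kinases, which phosphorylate SMAD1 and SMAD5. These join SMAD4 in the nucleus and induce the ID genes as well as Smad6 and Smad7, which feed back on the receptors. ID proteins have a helix-loop-helix but no DNA-binding region, and hold E proteins and their partners off DNA. In the ovary BMPs act in follicle growth, and cells of the surface epithelium and of ovarian cancers are known to raise ID1 and ID3 when given BMP4.

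Signals are linear intensities, and background was set at 24.5, the highest signal among the control probe sets for the bacterial gene Trpn. Over 10916 genes, array 2 minus array 1 on the log2 scale had an SD of 1.30 for homozygous, 0.60 for wild-type and 0.55 for heterozygous cells. The homozygous arrays are therefore given singly throughout. Of 14 surface epithelium markers, 13 were above background in homozygous array 1 and 14 in each other array, with summed homozygous signals of 63430 and 88246, below those of the other arrays at 163373 to 223965. Krt18, chosen after its values were seen, ran the other way in homozygous array 1. It was at 25436 there, against 5623 in homozygous array 2 and 6247 to 12233 in the wild-type and heterozygous arrays. Summed signals of 13 macrophage markers came to 752 and 757 in homozygous arrays 1 and 2 against 2719 to 5968 elsewhere, and those of 11 endothelial markers 1986 and 2873 against 9272 to 11075. Lyz2, Ptprc, Ctss, C1qa and Tyrobp among the macrophage markers, and Pecam1, Tek, Icam2, Emcn and Cldn5 among the endothelial ones, were under background in both homozygous arrays, and the endothelial markers Tie1 and Vwf in all 6 arrays. Pecam1, Tek, Emcn and Cldn5 were each under background in some wild-type or heterozygous arrays too, and none exceeded 52.2 there. Icam2 was at 642 to 1403 in those arrays. Most of each endothelial sum was Esam, chosen after its values were seen. It was at 6836 to 8168 in wild-type and heterozygous arrays and at 1791 and 2610 in homozygous arrays 1 and 2. Other macrophage markers, chosen after their values were seen, ran differently: Cd14 was at 222 in homozygous array 1, above every other array, Laptm5 at 215 in that array, above all but heterozygous array 1, and Csf1r at 488 in homozygous array 2. In bulk samples, fewer cells of a type and less RNA per cell cannot be told apart.

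Promoter windows of 6 of the 10 genes were matched in the RefSeq promoter table (GRCm38.p6), and those of Bmp2, Bmp7, Smad7 and Id1 were not. Smad7 lies on a chromosome that the matching left out, so whether the promoter table holds its window was not examined. The 250 bases before the start of Id2, Id3 and Id4 are shown as those of the ID genes that the results turn on. Capitals mark GGCGCC, the GC-rich SMAD site, and CAGAC or its reverse complement GTCTG, the SMAD binding element; CANNTG, the E-box bound by the partners of ID proteins, was searched as well, all on both strands, and no matches of different motifs overlapped.
Id2 (chr12:25096093-25096342, minus strand): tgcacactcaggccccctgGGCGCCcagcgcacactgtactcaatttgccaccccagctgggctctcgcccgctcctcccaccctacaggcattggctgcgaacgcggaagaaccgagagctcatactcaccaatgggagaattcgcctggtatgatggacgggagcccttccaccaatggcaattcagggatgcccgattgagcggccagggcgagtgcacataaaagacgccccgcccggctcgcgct
Id3 (chr4:136143572-136143821, plus strand): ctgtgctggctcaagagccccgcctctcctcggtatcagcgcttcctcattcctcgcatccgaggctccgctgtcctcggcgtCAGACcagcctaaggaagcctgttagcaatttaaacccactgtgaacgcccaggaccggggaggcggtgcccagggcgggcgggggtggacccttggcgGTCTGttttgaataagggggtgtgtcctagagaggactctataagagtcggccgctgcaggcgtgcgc
Id4 (chr13:48260866-48261115, plus strand): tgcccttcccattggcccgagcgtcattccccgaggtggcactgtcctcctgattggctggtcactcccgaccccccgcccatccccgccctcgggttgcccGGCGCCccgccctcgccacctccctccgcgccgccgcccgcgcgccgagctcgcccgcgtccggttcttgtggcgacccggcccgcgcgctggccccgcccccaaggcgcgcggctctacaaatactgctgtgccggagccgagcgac
GGCGCC occurred once in the Id2 window, 231 bases before the start, and once in that of Id4, 148 bases before it. The Id3 window held CAGAC or GTCTG at 167 and 68 bases before the start. GGCGCC also occurred in the Grem1 window, which held CAGAC as well, and neither motif was found in those of Bmp4 and Smad6. E-boxes numbered 3 in the Bmp4 window and 1 in that of Id2, with none in the other windows. Of 32851 windows of this length in the table, 9.59% held GGCGCC, 42.2% CAGAC or GTCTG and 66.2% CANNTG. The GC content was 75.6% in the Id4 window and 62.8% in those of Id2 and Id3.

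Bmp4 signals were higher in both homozygous arrays than in any other array, and of the 10 genes it differed least between the homozygous arrays. Its signals were 1364 and 1256 in wild-type, 1407 and 2236 in heterozygous, and 4082 and 4160 in homozygous arrays. Both homozygous arrays lay above the other 4, by at least 1.83-fold over the highest of them, and the groups did not overlap in any of the 3 comparisons. The homozygous mean was 3.15 times the wild-type mean, a log2 difference of 1.65 ± 0.29 (limma SE, n = 2 arrays per group), which missed the threshold of 0.05 with a limma adjusted p of 0.0551. Against heterozygous cells the log2 difference was 1.22 ± 0.29 (limma adjusted p 0.0769), and the heterozygous and wild-type cells, neighbours in the order of levels, differed by 0.44 ± 0.29 (limma adjusted p 1.00). The adjusted p against wild-type cells lay between 0.0289 and 0.436 over the alternatives. It passed with median-centred arrays, with a filter at the 60th percentile of signal, with signals raised to background and without homozygous array 2, where respectively 2.29%, 5.92%, 6.28% and 24.4% of all tested genes passed.

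The other ligands of the set had low signals and did not reach the filter on dim genes, a geometric mean signal of 60.2, so neither was tested. Bmp2, a ligand known from bone formation, was at 20.6 and 57.4 in wild-type and 53.2 and 69.4 in heterozygous arrays. In the homozygous cells it was at 394 in array 1 and 26.1 in array 2. Homozygous array 1 thus stood 5.67-fold above the highest of the wild-type and heterozygous arrays, while array 2 was close to background, and wild-type array 1 lay under it. Bmp7, a ligand known from kidney and eye development, was at 199 and 42.6 in wild-type, 43.7 and 19.2 in heterozygous and 45.6 and 56.1 in homozygous arrays. Only wild-type array 1 stood clear of the rest. Its other probe sets were above background in 4 and in 1 of 6 arrays, and their highest signals were 50.4 and 37.1.

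**Figure D1:**
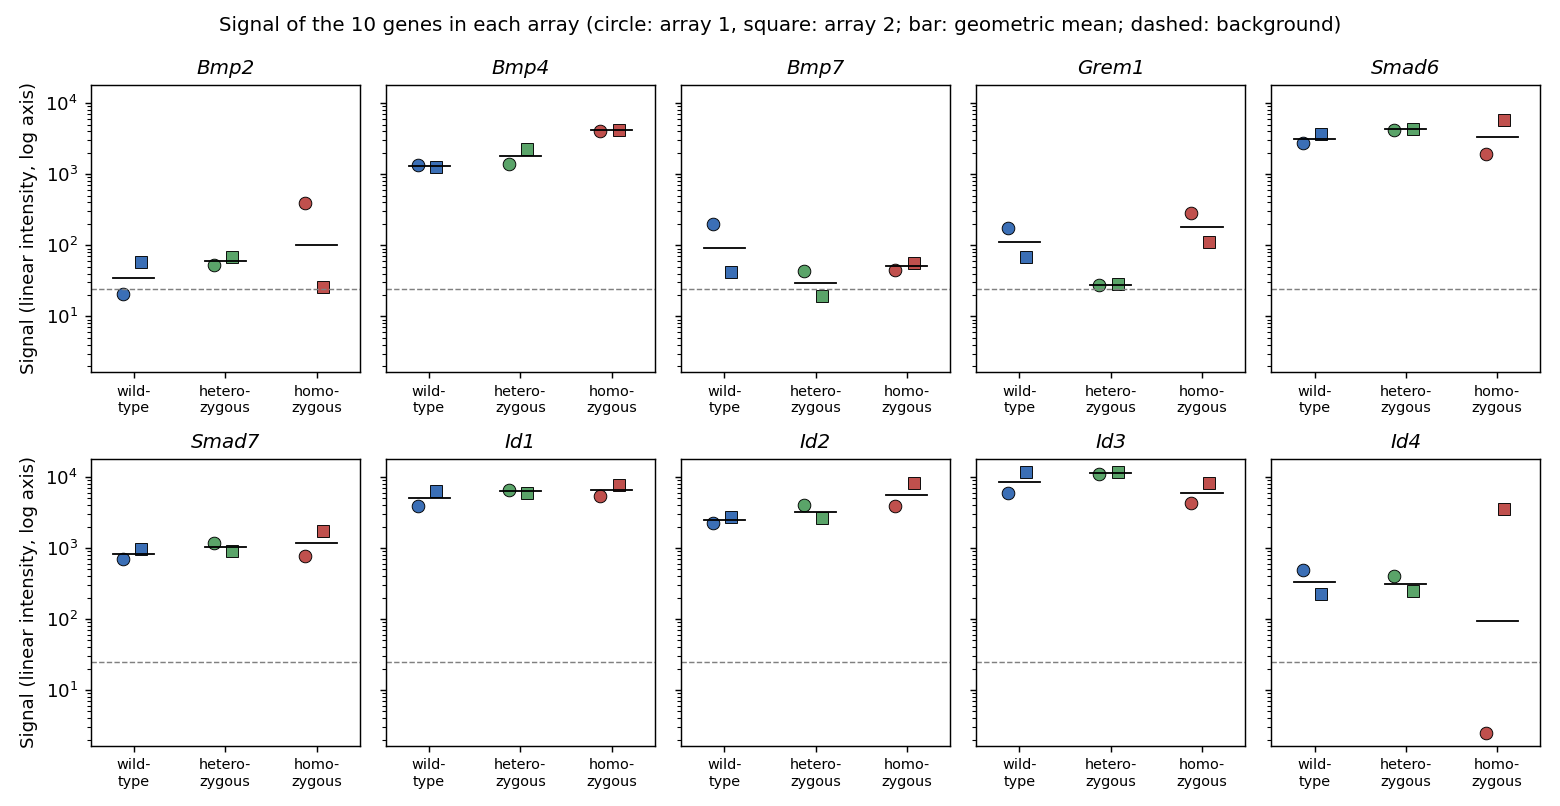
Signal of each of the 10 genes in each array on a log axis, with wild-type arrays in blue, heterozygous in green and homozygous in red. Circles are array 1, squares array 2, bars the geometric mean of a group and the dashed line the background of 24.5. Bmp4 is highest in both homozygous arrays, and the homozygous values of Id4 are 2.51 and 3530.

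Grem1, which binds BMPs outside the cell and blocks them, was lowest in the heterozygous cells. Its signals were 174 and 68.8 in wild-type, 27.6 and 28.5 in heterozygous and 285 and 112 in homozygous arrays. The heterozygous arrays lay just above background and below all 4 others, and wild-type and homozygous arrays overlapped. The log2 difference between homozygous and heterozygous cells was 2.67 ± 0.62 (limma adjusted p 0.0729, n = 2 per group), with a range of adjusted p from 0.0115 to 0.399 over the alternatives. Without homozygous array 2 it was 3.34 ± 0.56 with a limma adjusted p of 0.0115, a setting that called 26% of all tested genes, and without array 1 it was 2.0 ± 0.56 with a limma adjusted p of 0.100, where 6.67% were called. Heterozygous minus wild-type cells gave -1.96 ± 0.62 (limma adjusted p 1.00) and homozygous minus wild-type cells 0.71 ± 0.62 (limma adjusted p 0.479). The last was 0.0359 without homozygous array 1, 0.0375 without wild-type array 2, and 1.38 without either homozygous array 2 or wild-type array 1, and did not pass in any of these fits. Leaving out wild-type array 1 or 2 moved heterozygous minus wild-type cells to -1.29 or -2.63.

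Smad6 and Smad7, which block receptor signalling inside the cell, were each highest in homozygous array 2. Smad6 was measured at 2751 and 3642 in wild-type, 4222 and 4349 in heterozygous, and 1941 and 5705 in homozygous arrays. Homozygous array 1 was the lowest of the 6 and array 2 the highest, 2.94 times array 1. Smad7 was measured at 701 and 963 in wild-type, 1173 and 895 in heterozygous, and 768 and 1736 in homozygous arrays, so that homozygous array 2 stood 1.48-fold above the highest array of the other groups and array 1 within their range. The log2 differences of homozygous minus wild-type cells were 0.07 ± 0.54 for Smad6 and 0.49 ± 0.46 for Smad7 (limma adjusted p 0.941 and 0.505). The direction turned with the homozygous array left out: the Smad6 difference of homozygous minus heterozygous cells was 0.41 without array 1 and -1.14 without array 2. Each of these values rests on 1 homozygous array. The second Smad7 probe set had homozygous signals of 284 and 607 and the opposite sign of the homozygous minus wild-type difference, -0.16.

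Id1, Id2 and Id3, the ID genes that respond to BMP in many cell types, had signals at least 90.7 times background in every array. Id1 was measured at 3906 and 6392 in wild-type, 6506 and 6007 in heterozygous, and 5413 and 7785 in homozygous arrays. The groups overlapped, and the log2 differences were 0.38 ± 0.34 for homozygous minus wild-type, 0.32 ± 0.34 for heterozygous minus wild-type and 0.05 ± 0.34 for homozygous minus heterozygous cells, with limma adjusted p of 0.495, 1.00 and 0.930. Leaving out wild-type array 1, the lowest, moved the first to 0.0223 and the second to -0.0321. All 3 differences were smaller than the log2 difference of 0.71 between the wild-type arrays.

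Id2, which is also known from lymphoid and mammary development, was higher in both homozygous arrays than in the wild-type arrays on the probe set used. Its signals were 2224 and 2713 in wild-type, 3977 and 2595 in heterozygous, and 3850 and 8147 in homozygous arrays. Homozygous array 2 stood 2.05-fold above the highest of the other groups, and array 1 was within the heterozygous range. The homozygous minus wild-type difference was 1.19 ± 0.44 on the log2 scale (limma adjusted p 0.158), and 0.65 without array 2 and 1.73 without array 1. All 3 Id2 probe sets had their highest signal in homozygous array 2, at 8147, 4009 and 158. The direction of array 2 minus array 1 was the same in each, with log2 differences of 1.08, 2.02 and 1.71. On the other probe sets, however, homozygous array 1 was not above both wild-type arrays. It was at 989 against 867 and 1029 on one, and at 48.3 against 67.1 and 53.1 on the other.

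Id3 had its lowest group mean in homozygous and its highest in heterozygous cells. Its signals were 5910 and 11775 in wild-type, 10900 and 11804 in heterozygous, and 4326 and 8246 in homozygous arrays. Both homozygous arrays lay below both heterozygous arrays, and they overlapped with the wild-type arrays. Homozygous minus heterozygous cells gave -0.93 ± 0.47 (limma adjusted p 0.243), and homozygous minus wild-type cells -0.48 ± 0.47 (limma adjusted p 0.524), a direction that turned to 0.0618 with median-centred arrays and to 0.0152 without wild-type array 2.

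Id4, an ID gene known from the nervous system and from spermatogonial stem cells, was under background in one homozygous array and highest of all in the other. Its signals were 487 and 227 in wild-type, 405 and 244 in heterozygous, and 2.51 and 3530 in homozygous arrays. Homozygous array 2 was 7.24 times the highest of the wild-type and heterozygous arrays, and array 1 at least 9.24-fold below the lowest of them when set at background. Between the homozygous arrays the signal was at least 144-fold higher in array 2. Array 2 minus array 1 was -1.10 on the log2 scale in wild-type and -0.73 in heterozygous cells. Id4 was already known to differ between the homozygous arrays when the genes were chosen, so this difference is a description. The other 2 probe sets of Id4 had homozygous signals of 3.38 and 2354, and of 22.4 and 409, against ranges of 126 to 575 and of 113 to 180 in the other arrays. All 3 thus placed homozygous array 1 under background and array 2 above every other array.

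The group mean of Id4 describes neither homozygous array. With signals raised to background, the log2 difference of homozygous minus wild-type cells was -0.18 ± 2.22 and of homozygous minus heterozygous cells -0.0965 ± 2.22 (limma adjusted p 0.965 and 0.981, n = 2 per group). With the measured signal of array 1, which is under background, they came to -1.82 ± 3.26 and -1.74 ± 3.26 (limma adjusted p 0.737 and 0.747), so their size is not determined. With array 1 left out, homozygous array 2 was higher than wild-type cells by 3.41 ± 0.56 (limma adjusted p 0.0294) and than heterozygous cells by 3.49 ± 0.56 (limma adjusted p 0.0258), in fits that called 6.17% and 6.67% of all tested genes. With array 2 left out, the fitted log2 differences were -7.05 from wild-type and -6.97 from heterozygous cells. They rest on the measured signal of array 1 under background and are no sizes. With array 1 set at background, it was at least 13.6-fold below the wild-type mean and at least 12.8-fold below the heterozygous mean. In each of these fits the lone homozygous array is assumed to vary like the other groups. Over the alternatives that keep both homozygous arrays, the limma adjusted p against wild-type cells lay between 0.703 and 0.965.

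**Figure D2:**
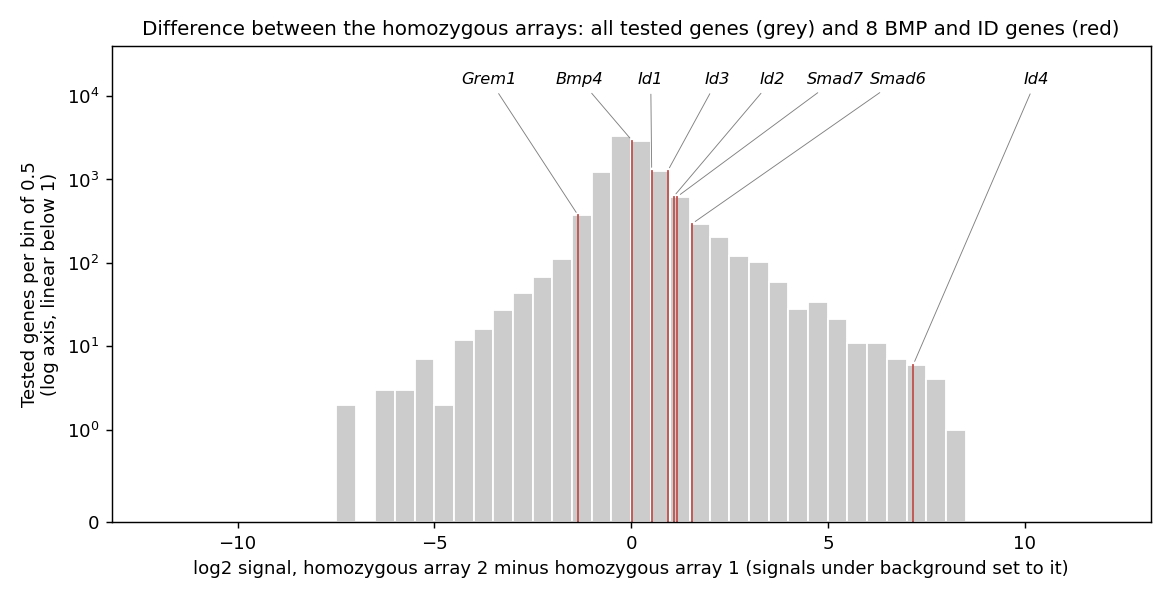
Histogram of the log2 signal of homozygous array 2 minus array 1 over 10916 tested genes, in bins of 0.5 with a log count axis, with red lines at the values of 8 BMP and ID genes. Signals under background were set to it, so the Id4 line at 7.17 is a lower bound; Bmp4 lies at 0.03, Grem1 at -1.34 and the other 5 between 0.52 and 1.56.

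Homozygous array 2 was above array 1 in 7 of the 8 genes tested, against 52.7% of all tested genes, and in 6 of 7 when Id4 is left out. Bmp4 is among them with a log2 difference of only 0.03. Grem1 ran the other way, as did Bmp2, which was not tested, with a log2 difference of -3.92. Homozygous array 2 was the highest of the 6 arrays in 6 of 8 (Bmp4, Smad6, Smad7, Id1, Id2 and Id4), against 15.1% of all tested genes, and in 5 of 7 without Id4. Homozygous array 1 was the lowest in 3 of 8 (Smad6, Id3 and Id4), against 35.6%, and in 2 of 7 without Id4. For Smad6, Smad7 and Id4 the homozygous arrays lay on opposite sides of the wild-type mean, 3 of 8 against 23.5% of all tested genes. Id4, counted among these, was known beforehand to differ between the homozygous arrays. Set against the wild-type mean, the median of the 8 genes was 0.0094 in array 1 and 0.96 in array 2 on the log2 scale, beside medians of -0.11 and -0.04 over all tested genes. Marker sums of some other cell types had the same order. The 6 fibroblast markers summed to 22847 in homozygous array 1, 88028 in array 2 and between 44791 and 64664 in the others. The 8 smooth muscle and pericyte markers summed to 11736, 47087 and between 21177 and 33739. Members of these lists, chosen after their values were seen, ran differently. Pdgfra and Cspg4 were lower in homozygous array 2 than in array 1. Col1a2 in homozygous array 1 lay above all wild-type and heterozygous arrays. Oocyte and lymphocyte sums were lower in homozygous array 2 than in array 1, and macrophage sums were nearly level. The 8 granulosa markers summed to 662 and 7046 in homozygous arrays 1 and 2, against 9416 to 13436 elsewhere. Most of each wild-type and heterozygous sum was Amhr2, at 6364 to 8463, against 36.1 and 1352 in homozygous arrays 1 and 2. Inhbb and Inhba ran differently, and all 3 genes were chosen after their values were seen. Both were highest of the 6 arrays in homozygous array 2, at 3662 and 1247, and were at 18.5 and 389 in array 1. The part of these cell types in the values of the BMP and ID genes was not tested.

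Compared by group, none of the 8 tested genes passed limma at an adjusted p of 0.05 in any of the 3 comparisons. For homozygous minus wild-type cells, 0 of 8 were called against 2.67% of all tested genes, and 2 of 8 had an unadjusted p under 0.05 (Bmp4 and Id2) against 28.9%. For homozygous minus heterozygous cells, 0 of 8 were called against 4.09%, and 2 of 8 (Bmp4 and Grem1) had an unadjusted p under 0.05 against 30.6%. For heterozygous minus wild-type cells, 0 of 8 were called against 0%, and 1 of 8 (Grem1) had an unadjusted p under 0.05 against 0.65%. That comparison too used the spread pooled with the homozygous pair. Homozygous and wild-type arrays were apart, with homozygous higher, in 2 of 8 (Bmp4 and Id2) against 27.4%, and with homozygous lower in 0 of 8 against 33.8%. Homozygous and heterozygous arrays were apart in 2 of 8 upward (Bmp4 and Grem1) against 28.2% and in 1 of 8 downward (Id3) against 34.2%. Heterozygous arrays were apart from wild-type arrays in 2 of 8 upward (Bmp4 and Smad6) against 13.2% and in 1 of 8 downward (Grem1) against 12.8%. The median log2 difference of the 8 was 0.36 for heterozygous minus wild-type, 0.43 for homozygous minus wild-type and 0.11 for homozygous minus heterozygous cells, beside 0.0046, -0.09 and -0.08 over all tested genes. The first 2 of these comparisons share the wild-type arrays, and the last 2 the homozygous arrays.

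**Figure D3:**
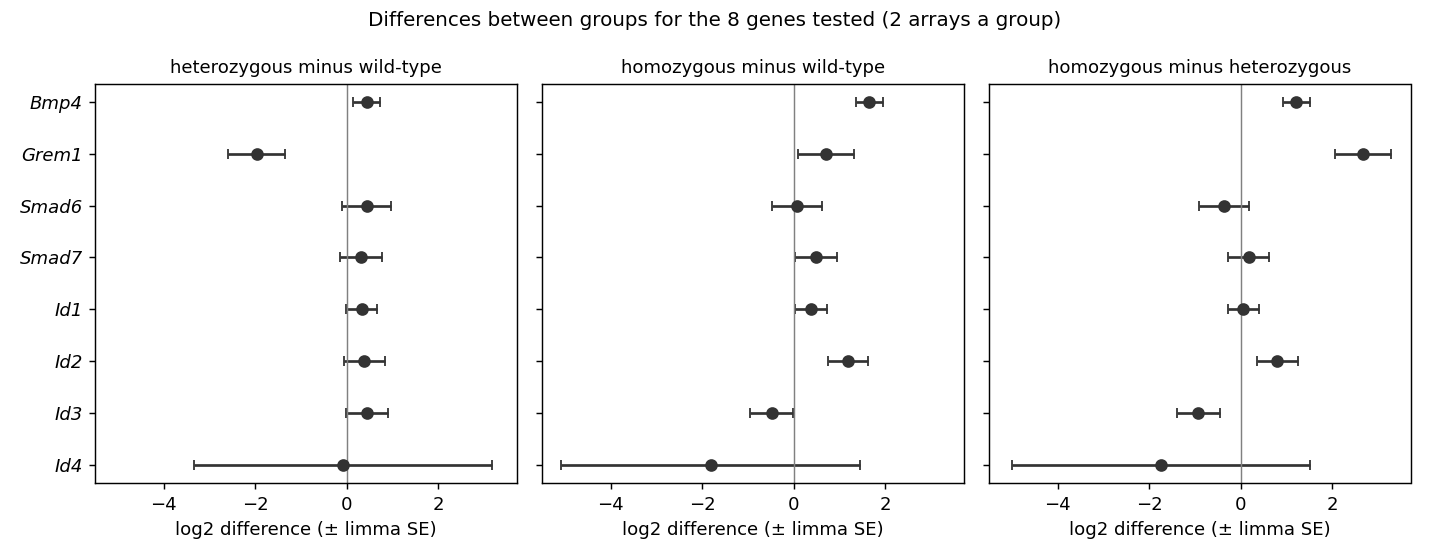
Log2 difference between groups with its limma standard error for the 8 tested genes in the 3 comparisons, 2 arrays per group. No point passes an adjusted p of 0.05. The error bars of Id4 span 3.26 to each side in all 3 comparisons, as the groups share a single spread. Its points in the comparisons with homozygous cells rest on homozygous array 1 under background. Bmp4 lies at 1.65 and 1.22 in the comparisons with homozygous cells.

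Of 71 further genes of the pathway, 66 were measured and 43 tested, and 1 was called in 1 comparison. Fst encodes follistatin, a secreted protein that binds activins and some BMPs. Its signals were 437 and 268 in wild-type, 416 and 659 in heterozygous, and 101 and 120 in homozygous arrays, and both homozygous arrays lay below the other 4. It fell by 2.25 ± 0.37 on the log2 scale from heterozygous to homozygous cells (limma adjusted p 0.0444), a direction and threshold that 3.22% of all tested genes passed, and homozygous minus wild-type cells gave -1.63 ± 0.37 (limma adjusted p 0.0742). The adjusted p of the first lay between 0.0166 and 0.396 over 15 alternatives, of which 12 ended the call, among them leaving out either wild-type array (0.110 each), heterozygous array 1 (0.171) or 2 (0.277), or homozygous array 1 (0.0529). Over the 43 genes, 0 were called for homozygous minus wild-type cells, against 2.67% of all tested genes, and 10 had an unadjusted p under 0.05, against 28.9%. For homozygous minus heterozygous cells 1 was called, against 4.09%, and 12 had an unadjusted p under 0.05, against 30.6%. For heterozygous minus wild-type cells 0 were called, against 0%, and 0 had an unadjusted p under 0.05, against 0.65%. Homozygous arrays lay below the wild-type arrays in 15 of 43 and above them in 7 of 43, that is 34.9% against 33.8% and 16.3% against 27.4% of all tested genes. The median log2 differences of the 43 were -0.19, -0.26 and 0.04 in the order of these comparisons, beside -0.09, -0.08 and 0.0046 over all tested genes.

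Among the other ligands, 2 of 9 measured were tested. Bmp6, a ligand made by oocytes and liver endothelium, was at 2339 and 1610 in wild-type, 1547 and 1983 in heterozygous, and 60.8 and 668 in homozygous arrays. Both homozygous arrays lay below the rest, and the homozygous minus wild-type difference of -3.27 ± 1.10 did not pass (limma adjusted p 0.135). Array 1 alone lay -5.0 ± 0.36 from wild-type cells, with a limma adjusted p of 0.000783 in a fit that called 24.4% of all tested genes, and array 2 alone lay -1.54 from them and was not called in a fit that called 6.17%.

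Of 15 secreted modulators measured, 7 were tested. Fstl1, a secreted glycoprotein related to follistatin, was at 7851 and 8038 in wild-type, 10533 and 9708 in heterozygous, and 2504 and 11974 in homozygous arrays. As with Smad6, homozygous array 1 was the lowest of the 6 and array 2 the highest. Over all roles, 4 of the 66 measured genes were under background in all 6 arrays and 42 above it in all 6.

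Among the receptors, 9 of 13 were tested. Bmpr1a, a type I BMP receptor, was measured at 4929 and 6103 in wild-type, 5025 and 4940 in heterozygous, and 3430 and 3933 in homozygous arrays. The homozygous arrays were below the other 4, and the difference from wild-type cells was -0.58 ± 0.23 (limma adjusted p 0.179). Amhr2 and Tgfbr3 were chosen after their values were seen. Amhr2, the receptor of anti-Mullerian hormone and also one of the granulosa markers used here, was at 8463 and 7575 in wild-type, 6364 and 7869 in heterozygous, and 36.1 and 1352 in homozygous arrays. Tgfbr3, the co-receptor betaglycan, was at 465 and 570, 543 and 752, and 69.6 and 2116 in the same order. Homozygous array 1 was the lowest for both, and array 2 was the highest for Tgfbr3, as for Id4. With homozygous array 1 left out, Amhr2 lay -2.57 and Tgfbr3 2.04 from wild-type cells on the log2 scale. With array 2 left out they lay -7.79 and -2.89 from them. Each of these values rests on 1 homozygous array, and the homozygous arrays differed by 5.23 for Amhr2 and 4.93 for Tgfbr3.

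Of the signal transducers 11 of 12 were tested, of the other targets 11 of 14 measured, and all 3 E proteins. Tob1, an antiproliferative protein that represses BMP SMADs, was at 9093 and 5460 in wild-type, 4523 and 4608 in heterozygous, and 10129 and 3771 in homozygous arrays, with array 1 the highest and array 2 the lowest. Zfp423, a zinc finger partner of BMP SMADs chosen after its values were seen, was at 932 and 266, 232 and 231, and 1.48 and 46.1 in the same order. Both homozygous signals lay below the other 4, that of array 1 under background, and the homozygous minus wild-type difference was -5.91 ± 1.64 (limma adjusted p 0.102), or -3.89 ± 0.65 with signals raised to background (limma adjusted p 0.0356). Snai2, a repressor of epithelial genes induced by BMP and TGF-beta, was at 910 and 1208 in wild-type, 1293 and 922 in heterozygous, and 2284 and 2460 in homozygous arrays. As with Bmp4, both homozygous arrays lay above the others and close together, and the difference from wild-type cells of 1.18 ± 0.29 did not pass (limma adjusted p 0.0838). Tcf12, an E protein, was at 5583 and 5088, 5349 and 4877, and 3897 and 5633 in the same order, and the groups overlapped.

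**Figure D4:**
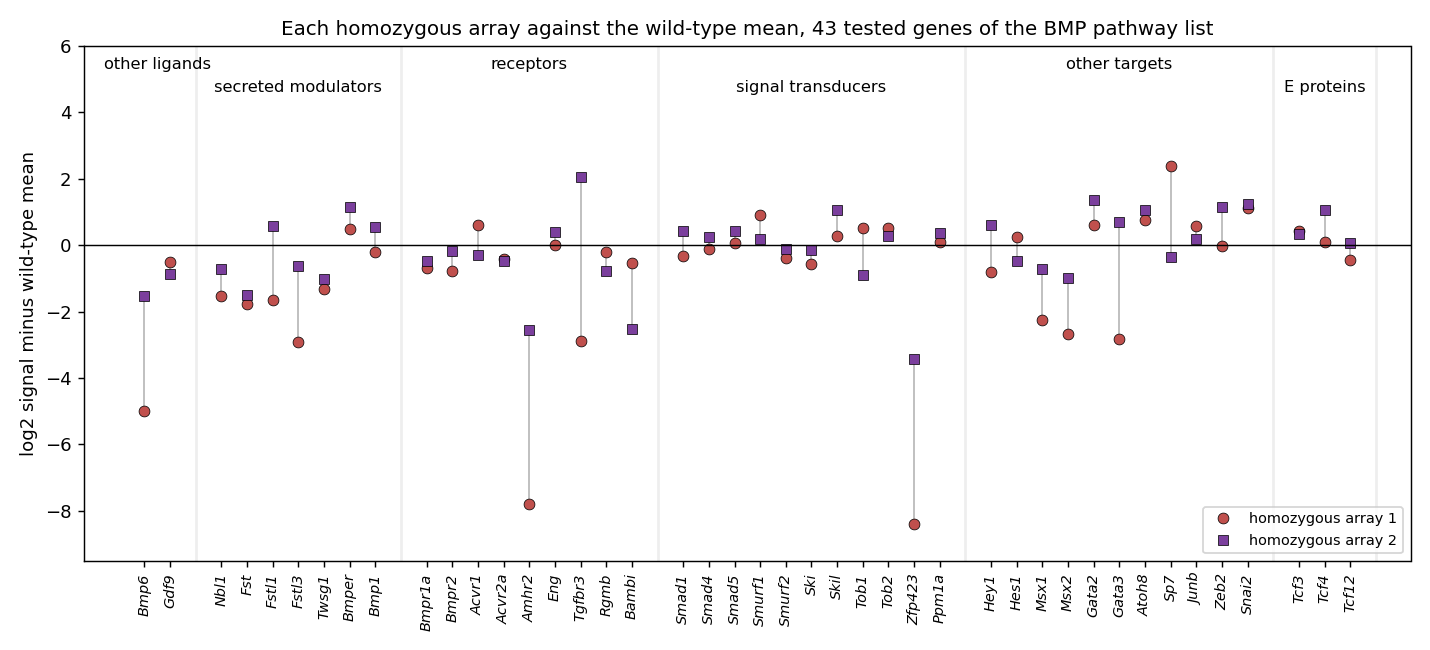
Log2 signal of homozygous array 1 (circles) and array 2 (squares) minus the wild-type mean for the 43 tested genes of the BMP pathway list, by role. Array 2 lies above array 1 in 31 of 43 genes, and the longest lines are those of Amhr2, Zfp423 and Tgfbr3, with array 1 of Zfp423 under background.

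Homozygous array 2 was above array 1 in 31 of these 43 genes (72.1% against 52.7% of all tested genes) and the highest of the 6 arrays in 17 of 43 (39.5% against 15.1%). It was the highest, and array 1 the lowest, in 6 of 43 (14% against 4.34%) and in 2 of the 8 genes of the set, Smad6 and Id4, or in 1 of 7 without Id4. With homozygous array 2 left out, 11 of 43 genes were called against wild-type cells and 14 against heterozygous cells (24.4% and 26% of all tested genes), and with array 1 left out 2 of 43 in each (6.17% and 6.67%).

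The genes whose pattern over the 6 arrays was nearest to that of Id1 and Id4 were found by the root mean square difference of log2 signals, each gene centred on its own mean. Nearest to Id1 were Atxn2 (0.0657), Evc2 (0.0685) and Afdn (0.0706), where the median over tested genes was 0.52. Nearest to Id4 on the measured signals were Plagl1, Khdrbs3 and Crispld2, all under background with Id4 in homozygous array 1. With signals raised to background their distances from Id4 were 0.62, 0.82 and 0.59, where the median was 2.14, and they were the 5th, 13th and 3rd nearest. Plagl1, an imprinted zinc finger gene, was measured at 275 and 441 in wild-type, 235 and 224 in heterozygous, and 3.0 and 4467 in homozygous arrays. Khdrbs3 was at 1.02 and 602 and Crispld2 at 7.83 and 7801 in the homozygous arrays, a low array 1 and a high array 2 that the choice by likeness to Id4 brings with it. These values are a description over 6 arrays that share the homozygous pair.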

How the data were processed

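Per the labels, total RNA of 6 samples was biotin-labelled for Affymetrix arrays. RMA appears in the submitters' processing notes, its version being not given in the sources used here. Linear intensities per probe set are what the authors deposited, with a trimmed mean (middle 96%) of 500 in each array, the form of MAS 5.0 signals. Log2 was taken with no offset. Array data have no count depth; their precision is limited by the number of arrays.

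Probe sets naming 1 symbol (34958) were used, with symbols updated by Entrez identifier through the RefSeq gene table (34754 matched); 932 named several symbols and 9211 none. Each of 18194 genes took its probe set with the highest mean, and the 10916 at or above the 40th percentile were tested with limma 3.58.1 in R 4.3.3, as 3 group means in a single fit of 6 arrays, with empirical Bayes moderation and Benjamini-Hochberg adjustment over all tested genes. The code of the fit was run on simulated data with the same spread in every group, to check that shifts added to some genes were returned on average. That check does not cover the wider spread of the homozygous pair. Errors are limma standard errors.

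The set of 10 genes, the pathway and marker lists and the settings were chosen with earlier results of these data known. Named genes are the 10, each pathway gene called, the gene with the highest mean in each role, markers under background in all arrays of a group, and the 3 genes nearest in pattern to Id1 and to Id4; others are said to be chosen after their values were seen. Figures used Python 3.11.15 and matplotlib 3.10.9.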

Additional observations from a re-analysis of the deposited data

How the results depend on the processing

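With 2 arrays per group, a single array decides most of these values. The count of genes of the set called, of which 8 were tested, was 0 in every comparison. It became 1 for homozygous minus wild-type cells (Bmp4) under median-centring, under a 60th percentile filter and when signals were raised to background. Those settings called 2.29%, 5.92% and 6.28% of all tested genes in that comparison. With an array left out the count also moved in the comparisons with homozygous cells, in fits where a group holds 1 array. The count for the pathway list, 0 for homozygous minus wild-type cells, was 1 with signals raised to background and between 0 and 11 with an array left out. For homozygous minus heterozygous cells it was 1 and became 0 with median-centred arrays, no filter, a 60th percentile filter (which Fst did not reach), the mean of all probe sets, only the 2 groups compared, a spread differing between groups, the replicate block, and with the close pair of wild-type array 2 and heterozygous array 1 both left out; with an array left out it lay between 0 and 14. The median log2 difference of homozygous minus heterozygous cells for the set, 0.11, lay between -0.31 and 1.00 with an array left out.

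Directions turned as follows. With an array left out, Id1 lay between -0.0321 and 0.68 (heterozygous minus wild-type) and between -0.21 and 0.32 (homozygous minus heterozygous), and Id3 between -0.0539 and 0.94 (heterozygous minus wild-type) and between -0.98 and 0.0152 (homozygous minus wild-type). Id4 lay between -0.63 and 0.47 (heterozygous minus wild-type), -6.97 and 3.49 (homozygous minus heterozygous) and -7.05 and 3.41 (homozygous minus wild-type); the negative ends of the last 2 rest on homozygous array 1 under background and are no sizes. Smad6 lay between -1.14 and 0.41 (homozygous minus heterozygous) and between -0.71 and 0.85 (homozygous minus wild-type), and Smad7 between -0.42 and 0.76 and between -0.10 and 1.08. Without both close arrays Id3 was 0.0152 (homozygous minus wild-type). With median-centred arrays Id3 was 0.0618 (homozygous minus wild-type) and Smad6 0.16 (homozygous minus heterozygous). Median-centring moved the median of all tested genes from -0.09 to 0.45 and from -0.08 to 0.44 in these comparisons, so values under it are read relative to that shift. Bmp4 and Id2 kept their direction in all 3 comparisons under all 16 alternatives. For the other turns the cause was not tested.

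Over all tested genes 291 were called for homozygous minus wild-type cells, and between 0 and 2663 under the alternatives; for homozygous minus heterozygous cells 446, and between 0 and 2841. The titles number the arrays of every group 1 and 2, but no label says that a number marks a shared animal or day. Deviations of same-numbered arrays correlated at -0.30, -0.0997 and 0.16 across genes. With the replicate block, 0 of the 8 tested genes of the set were called in each comparison, and 0 genes of the pathway list. Of all 10916 tested genes, those fits called 0 in each comparison with wild-type cells. They called 19 for homozygous minus heterozygous cells, so the counts of 0 tell little of these genes.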
